A study of Mus musculus with 289 samples.

Results

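The 4 in-slice controls of day 7 in batch 3 were compared with the 35 cells collected from injected cortex on the same day in the same batch. An in-slice control is a library that the labels mark as holding no cell. The labels describe collection in the same words for every sample, as suction with an electrophysiology tip, and do not say where in the slice the control tips were held. The members were taken from the labels alone: every batch 3 library labelled in-slice control (4), g-Sox9 (21 cells) or g-Sox9+Trps1 (14 cells), 39 of the 289 samples in the series. All libraries came from the cortex of adult Cas9 transgenic mice injected with a lentivirus (Mok-LV), built to act in astrocytes, that carried guide RNAs (gRNAs) against Sox9 alone or, in cells called dual gRNA cells here, against both Sox9 and Trps1. The treatment text is the same for controls and cells, so no uninjected mouse and no control gRNA enters this comparison. Strain, sex, exact age, the promoter behind the vector and that behind Cas9 are not given in the sources used here. Every cell is labelled an astrocyte, and all libraries were made from poly(A) RNA by Smart-seq2. The comparison asks which transcripts are read in the slice without a cell, and which are read with cells only.

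Astrocytes are the glial cells that take up glutamate and potassium, line vessels with aquaporin-bearing endfeet and are coupled by gap junctions. Their fine processes interleave with synapses, so a pipette that reaches an astrocyte crosses neuropil, the mesh of dendrites, axons and glial processes, in which mRNAs such as that of Camk2a and mitochondria are present outside cell bodies. Microglia are the resident macrophages of the brain and gather around an injection, and complement C1q is among their most abundant products. Smart-seq2 amplifies the poly(A) RNA of a single tube over its full length and gives read counts without molecular identifiers, so a few molecules can become many reads.

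Reads in genes came to 1189992, 1005694, 2157997 and 1667187 in in-slice controls 1 to 4, numbered in accession order, and to between 111941 and 2313690 in cells (median 1526690). Levels are given as CPM, a gene's reads scaled to a common total of reads in genes, and are relative to all other RNA in the tube. CPM is not corrected for gene length, so levels are compared between libraries and not between genes. The labels name no animal, so each pool counts as 1 sample, no test was made, and no difference has a replicate check across animals. Intervals in parentheses are exact 95% Poisson intervals of pooled reads. They cover counting error only. A log2 ratio compares the pool of 35 cells with the pool of 4 controls after 5 CPM was added to each, and is positive where cells are higher.

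Ribosomal and mitochondrial RNA led the pool of in-slice controls. The row with the most reads there was CT010467.1 (ENSMUSG00000106106, GRCm38 chromosome 17, 39846353 to 39848827, minus strand), annotated in GENCODE as ribosomal RNA and singled out here after its values were seen. It was followed by the mitochondrial 16S and 12S ribosomal RNAs, mt-Rnr2 (chromosome M, 1094 to 2675, plus strand) and mt-Rnr1 (chromosome M, 70 to 1024, plus strand). The first 120 bases of their annotated transcripts, from GENCODE M21 on GRCm38, are shown because these 3 rows held the most reads of the control pool (for CT010467.1, transcript ENSMUST00000198477.1). They are written 5′ to 3′ on the annotated strand, with no part capitalised.
CT010467.1: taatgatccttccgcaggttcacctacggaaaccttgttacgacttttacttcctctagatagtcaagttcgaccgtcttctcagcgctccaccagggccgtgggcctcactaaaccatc
mt-Rnr1: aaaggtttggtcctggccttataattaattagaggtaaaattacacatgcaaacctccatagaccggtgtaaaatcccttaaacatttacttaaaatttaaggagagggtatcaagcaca
mt-Rnr2: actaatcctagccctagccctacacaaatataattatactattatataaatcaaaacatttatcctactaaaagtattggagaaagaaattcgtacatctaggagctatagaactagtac
None of the 3 encodes a protein. Use of strand in the counting is unstated in the sources, so reads of the rRNA itself and of this minus-strand row cannot be told apart.

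CT010467.1 took 27.5, 23.5, 1.17 and 62.6% of reads in in-slice controls 1 to 4, and between 0.904% and 49.997% in cells (median 13.8%). Control 4 stood above every cell and control 3 near the lowest cells, so this rRNA row does not set controls apart as a group. The mitochondrial genome took 13.8, 27, 3.51 and 18.3% of reads in the controls, and between 1.12% and 9.81% in cells (median 3.21%). Controls 1, 2 and 4 lay above all 35 cells, while control 3 lay below 15 of them. The ribosomal RNA of mitochondria made up 7.67, 18.6, 1.04 and 15.5% of reads in controls 1 to 4. Protein-coding genes of the nucleus took 55.6, 46.8, 93.9 and 18.2% in controls 1 to 4, and 38.5 to 94.5% in cells (median 81.6%). In this share only 2 cells exceeded control 3, and whether a cell entered its tip was not tested. At the same depth of 100000 reads, 6002, 3074, 1418 and 1074 genes had a read in the controls, against 1603 to 10108 in cells (median 3669). Without thinning these were 8475, 5222, 2440 and 2215 genes in the controls and 2510 to 12740 in cells. At the common depth 4 cells held more genes than control 1, whereas controls 3 and 4 held fewer than every cell.

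**Figure D1:**
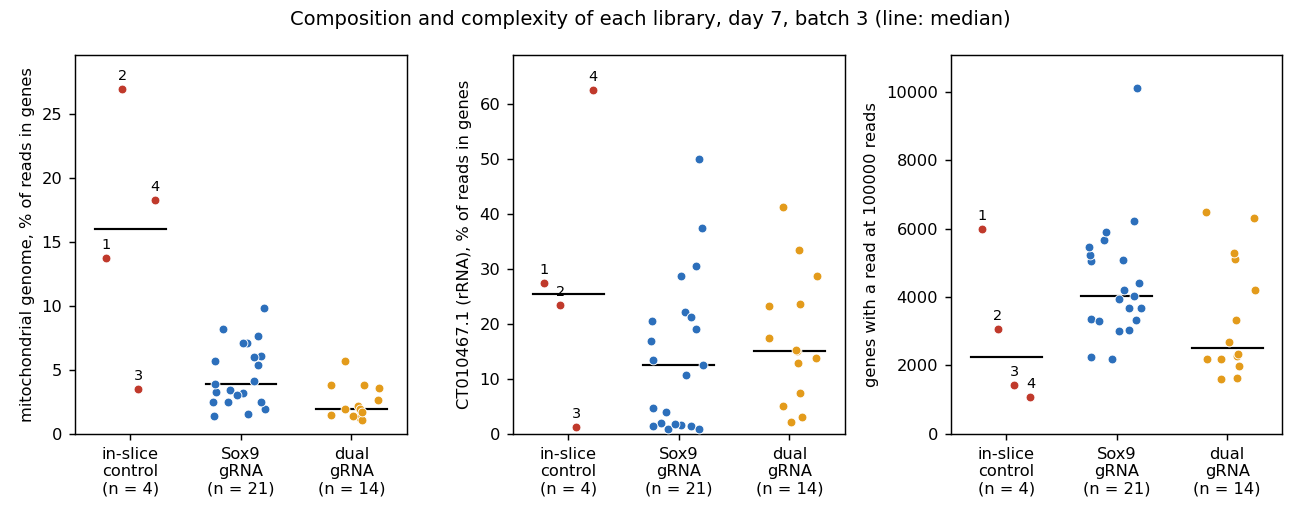
Each point is 1 library. The y axes give the share of reads in mitochondrial genes (%), the share in the rRNA row CT010467.1 (%) and the number of genes with a read after thinning to 100000 reads. The lines are group medians and digits number the in-slice controls. Controls 1, 2 and 4 lie above all cells in mitochondrial share, and control 3 lies among them at 3.51%.

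The 4 controls were unlike each other, and so were many cells. Spearman correlations across genes at 100000 reads, without mitochondrial genes and CT010467.1, ran from 0.093 to 0.214 between controls. Between cells they ran from 0.094 to 0.583 (median 0.24). The first 3 genes of each control are named by CPM with rRNA, mitochondrial, ribosomal protein and predicted genes set aside, a rule added after the values were seen. In-slice control 1 was led by Meg3, a noncoding RNA of neuronal nuclei (5856 CPM), Fth1, the ferritin heavy chain (4356 CPM), and Lars2, a mitochondrial leucyl-tRNA synthetase (3707 CPM). In-slice control 2 was led by Fth1 (8569 CPM), by Camk2a, a kinase subunit whose mRNA is carried into dendrites (6321 CPM), and by Kif5a, a neuronal kinesin (6252 CPM). These are neuronal or widely expressed transcripts. In-slice control 3 was led by Apoe, the lipid carrier of glia (23183 CPM), Lgmn, a lysosomal protease (20256 CPM), and Cd83, a glycoprotein found on activated immune cells (17606 CPM). In-slice control 4, after its rRNA, was led by Lars2 (15279.6 CPM), Bap1, a nuclear deubiquitinase (3390.1 CPM), and Letm1, a protein of the mitochondrial inner membrane (2325 CPM). Lars2 was also read in all 35 cells, at up to 10019 CPM. Bap1 and Letm1 stood at 92.4 and 57.1 CPM in control 1 and at under 1 CPM in controls 2 and 3.

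How much of the background was shared at the level of genes depended on the pair of controls. Of the 2008 genes at 20 CPM or more in control 2, 50.05% reached that level in control 1, 17.8% in control 3 and 13.1% in control 4. Of the 4631 such genes in control 1, 21.7%, 14.7% and 10.5% did so in controls 2, 3 and 4. Of the 729 in control 4, 66.7% did so in control 1, and of the 1206 in control 3, 56.4%. A cell held a median of 34.2%, 36%, 48.2% and 46.6% of the genes of controls 1 to 4 at that level. Of the 12279 genes at 5 CPM or more in either pool, 340 had a read in all 4 controls, 1074 in 3, 2550 in 2, 4649 in 1 and 3666 in none. Over the tested genes, being read in a single control was the most frequent case.

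Of the 4 marker genes, the astrocyte pair stood higher in cells, the neuronal marker overlapped and the microglial marker followed 1 control. Gfap, the intermediate filament of astrocytes (ENSMUSG00000020932, GRCm38 chromosome 11, 102887336 to 102900912, minus strand), stood at 135, 0, 0 and 0 CPM in in-slice controls 1 to 4 and from 0 to 3811 CPM in the 35 cells, with a median of 259 CPM. It was read in 28 of 35 cells, of which 20 exceeded control 1, and the log2 ratio was 4.72. Slc1a2, the main astrocytic glutamate transporter (ENSMUSG00000005089, GRCm38 chromosome 2, 102658659 to 102790784, plus strand), stood at 305, 15.9, 0.463 and 93 CPM in the controls and from 0 to 6643 CPM in the 35 cells, with a median of 948 CPM. It was read in 34 cells and in all 4 controls, 24 cells exceeded the highest control, and the log2 ratio was 4.03. Both genes overlapped between groups, since some cells lay at or below the controls. Reads of Slc1a2 could include those of Gm13872, which lies on the opposite strand.

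Snap25, a synaptic vesicle fusion protein of neurons (ENSMUSG00000027273, GRCm38 chromosome 2, 136713453 to 136782428, plus strand), stood at 2759, 719.9, 0 and 131 CPM in the controls and from 0 to 15895 CPM in the 35 cells, with a median of 489 CPM. Control 1 exceeded 27 of the 35 cells, and control 3, in which no read was counted, has a floor of 1.39 CPM (3 counts). The log2 ratio was 1.71, and 8 cells lay above every control. C1qb, a chain of complement C1q (ENSMUSG00000036905, GRCm38 chromosome 4, 136880129 to 136886187, minus strand), stood at 993, 1145, 11667 and 0.60 CPM in the controls and from 0 to 7996 CPM in the 35 cells, with a median of 591 CPM. Control 3 lay above all 35 cells, controls 1 and 2 near the middle of the cells (16 and 15 cells were higher) and control 4 below 34. The log2 ratio was -1.61 with all 4 controls and 1.3 without control 3, so the direction of C1qb rests on that library. As to detection, 34 of 35 cells held a C1qb read.

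Of the targeted genes, Sox9 was nearly free of control reads, whereas Trps1 was read in controls 1 and 4. Sox9 (ENSMUSG00000000567, GRCm38 chromosome 11, 112782224 to 112787760, plus strand), which maintains astrocyte identity, was read in in-slice control 3 alone, at 0.463 CPM, the level of 1 read. It was read in 31 of 35 cells, from 0 to 14893 CPM with a median of 268 CPM. Trps1 (ENSMUSG00000038679, GRCm38 chromosome 15, 50654752 to 50890463, minus strand), a zinc finger repressor, stood at 2.52, 0, 0 and 10.8 CPM in the controls, was read in 26 cells and exceeded the highest control in 16. Its median in cells was 5.2 CPM, below control 4, and its highest value was 3454 CPM. The log2 ratio of the pools was 8.07 for Sox9 and 4.33 for Trps1. A cut gene can still be transcribed, and editing was not measured here.

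**Figure D2:**
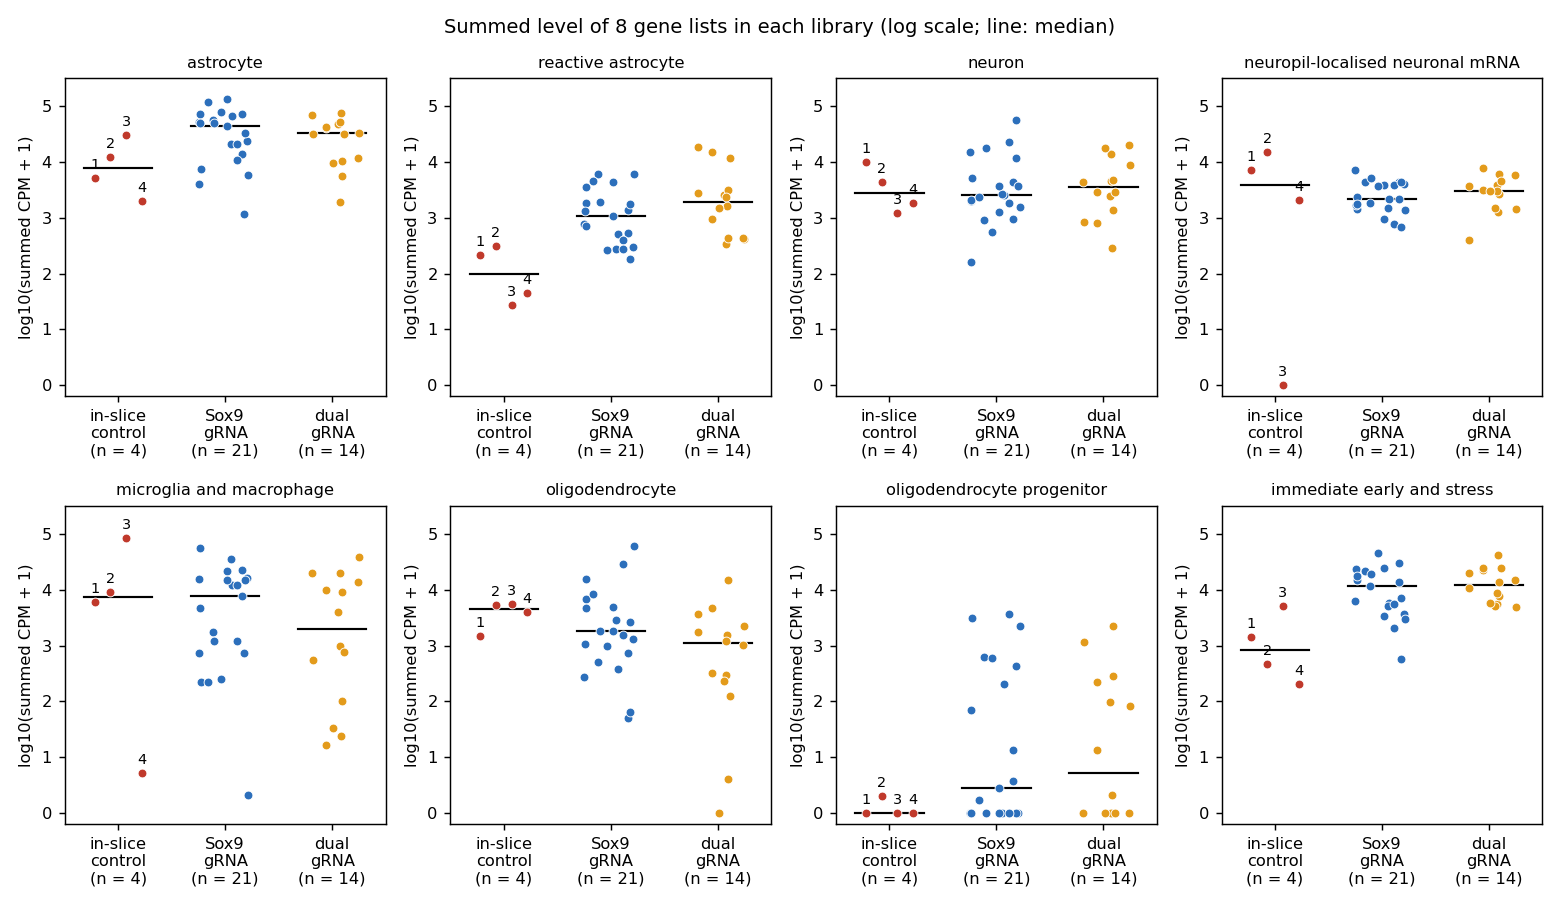
Summed CPM of 8 gene lists, as log10(CPM + 1), in each of the 4 in-slice controls (digits), 21 Sox9 gRNA cells and 14 dual gRNA cells, with group medians as lines. The reactive astrocyte list stands above every control in 30 of 35 cells, whereas the microglial list is highest in control 3 and nearly absent from control 4.

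Most astrocyte genes were higher in the pool of cells than in the pool of controls, while single libraries overlapped. Over the 35 genes of the astrocyte list, 31 met the rule for higher in cells, 4 stood at a like level and 0 were higher in controls. Here higher in cells means at least 20 CPM in the cell pool and a log2 ratio of 1 or more, also with each gene's highest library in both pools left out. Over all 12279 genes tested, 42.5% met that rule. The list's median log2 ratio was 4.65, beside 1.52 over all genes tested. The pools are unequal, with 6020870 reads in 4 controls against 51426762 in 35 cells, and the part of this difference in the counts of genes was not tested. The list summed to 5229, 12076, 30013 and 2037 CPM in the controls and 1170.3 to 132820 CPM in cells (median 33229.7 CPM), and 21 cells exceeded control 3. In control 3 the sum was mostly Apoe (23183 CPM) and Cst3, a secreted protease inhibitor (5067 CPM), both of which microglia also express, and the part of microglial RNA in this list was not tested. The 6 of 35 members with no read in any control were Aqp4, Fgfr3, Gjb6, Htra1, Ntsr2 and Slc7a10. Over all 12279 genes tested, 3666 had no read in any control, a larger share, so absence from the controls does not set this list apart.

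Gja1, the gap junction protein connexin 43, was at 0 in controls 1 to 3 and at 1.2 CPM in control 4, and ran from 0 to 12785 CPM in the 35 cells, with a median of 829.6 CPM. Slc1a3, the second astrocytic glutamate transporter, stood at 0, 0.994, 0.463 and 10.8 CPM in the controls and from 0 to 7548 CPM in the 35 cells, with a median of 1347 CPM. Clu, the chaperone clusterin, stood at 139, 7.95, 0 and 2.4 CPM in the controls and from 1.89 to 17708 CPM in the 35 cells, with a median of 2846 CPM. The log2 ratios were 8.42, 7.75 and 6.8. Cells were not uniform in them, however. Counting Aqp4, Gja1, Slc1a3, Slc1a2 and Gfap, 15 cells had all 5 above the highest control, 26 had 3 or more, and 4 had none. Of those 4 cells, 3 carried the Sox9 gRNA label and 1 the label of both gRNAs. In those 4 cells none of the 5 genes exceeded the highest control, although all 35 cells are labelled astrocytes.

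Genes of reactive astrocytes, which respond to injury, were low in the controls. Of 15 listed genes, 13 were tested and 10 were higher in cells, beside 42.5% of all genes tested. The list summed to 214, 313, 26.4 and 44.4 CPM in the controls and 179 to 18917 CPM in cells (median 1387 CPM). Vim, an intermediate filament, was read only in control 4 (0.60 CPM, 1 read) and in 22 cells, at up to 1981 CPM. Stat3, a signal transducer of gliosis, stood at 30.6 CPM in control 4, was at 0 in the others and was read in 29 cells. Serpina3n, a secreted protease inhibitor, stood at 13.4, 116, 0 and 12 CPM in the controls and was read in 15 cells, with 15933 CPM in the highest.

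Neuronal transcripts were present in the controls at the level of cells. In controls 1 to 4, 19, 15, 2 and 16 of the 19 genes of the neuron list had a read. The list summed to 10197, 4413, 1201 and 1811 CPM in the controls and 159 to 57084 CPM in cells (median 2868 CPM), and 8 cells exceeded control 1. Of its 19 genes 7 were higher in cells and 8 at a like level, beside 42.5% and 4.63% of all genes tested. The share higher in cells was thus near that of all genes. Transcripts that neurons carry into dendrites and axons form a list of their own, which summed to 7115, 15358, 0 and 2098 CPM in the controls, and no cell exceeded control 2. Its cells ran from 399 to 7944 CPM with a median of 2979 CPM. The median log2 ratio of that list was -0.33, and 0.69, 0.25, -0.96 and -0.13 without controls 1, 2, 3 and 4 in turn, so its sign rests on controls 1 and 2. Camk2a stood at 3050.4, 6321, 0 and 166 CPM in the controls, and every cell lay below control 2 while all 35 lay above control 3. Kif5a stood at 1092, 6252, 0 and 409 CPM, with a median of 357 CPM in cells. Map2, a dendritic microtubule protein, stood at 287, 1663, 0 and 232 CPM, and Gria2, a glutamate receptor subunit, at 476, 150.1, 0 and 70.8 CPM. Their medians in cells were 152 and 346 CPM. Control 3 held no read of any of the 15 genes, which the other 3 controls did.

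Transcripts of neuron subtypes were thin in both groups. The list of excitatory neurons summed to 666, 949.6, 134 and 66 CPM in the controls and 0 to 1311 CPM in cells (median 309.9 CPM), and that of inhibitory neurons to 18.5, 26.8, 0 and 14.4 CPM and 0 to 352 CPM in cells (median 20.04 CPM). Slc17a7, the vesicular glutamate transporter of cortical neurons, stood at 338, 38.8, 0 and 57.6 CPM in the controls, with a median of 20.8 CPM in cells. Gad1, which makes GABA, was read in control 2 (2.98 CPM, 3 reads) and in 12 cells. Vip, a peptide of some interneurons, had no read in the controls and was read in 6 cells, at up to 352 CPM.

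Microglial genes were read at high levels in control 3, at the level of cells in controls 1 and 2, and hardly in control 4. The list of 23 summed to 6026, 8966, 84006 and 4.2 CPM in the controls and 1.11 to 55746 CPM in cells (median 4727 CPM), and no cell reached control 3. Control 3 had a read of 21 of the 23 genes, controls 1 and 2 of 22 and 15, and control 4 of 7. C1qa and C1qc, the other chains of C1q, stood at 413, 599.6, 10808 and 0 CPM and at 365, 976, 8297 and 0 CPM. Ctss, a lysosomal cysteine protease, stood at 328, 1513, 10245 and 0.60 CPM in the controls, with a median of 586 CPM in cells and a highest value of 7897 CPM. The list's median log2 ratio of -1.63 became 1.49 without control 3, near the 1.51 of all genes under the same setting. With all 4 controls 4 of 23 members met the rule for higher in cells, a smaller share than the 42.5% of all genes tested. They were Cd68, Cd74, Fcrls and H2-Aa, of which H2-Aa had no read in any control. A control has no set number of cells behind it, so material from more cells and more RNA per cell cannot be told apart.

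Myelin transcripts appeared in all 4 controls, through different genes. The oligodendrocyte list summed to 1461, 5274, 5463 and 3940.2 CPM in the controls and 0 to 61295 CPM in cells (median 1512 CPM), of which 6 cells exceeded control 3. Mbp, a myelin protein whose mRNA travels to the sheath, stood at 671, 2926, 0 and 584 CPM, and Cnp, a myelin enzyme, at 0, 0, 1109 and 72 CPM. So control 2 led in Mbp and control 3 in Cnp. In cells their medians were 137 and 139.9 CPM and their highest values 15250.4 and 11687 CPM. Genes of oligodendrocyte progenitors differed: Olig1, Olig2, Sox10, Pdgfra and Cspg4 had no read in the controls, and the list held 1 read, of Gpr17, in control 2. Olig1, a lineage transcription factor, was read in 16 cells at up to 1076 CPM and Sox10 in 7 cells at up to 659 CPM. Set against the control pool's floor of 3 counts (0.498 CPM), Olig1 was 341-fold and Sox10 139-fold higher in the cell pool. That floor covers counting in these 4 controls only, and most cells held no read of either gene.

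Vessel, ependymal and blood transcripts were scarce in the controls. Control 1 held reads of 1 endothelial gene, Eng, a TGF-beta coreceptor, at 157 CPM, the endothelial list stood at 0.927 CPM in control 3 and at 0 in the others, and its median in cells was 0. The list of pericytes, smooth muscle and fibroblasts was read as Pdgfrb alone, at 167 CPM in control 2. No ependymal or erythroid gene had a read in any control. Haemoglobin Hbb-bs was read in 7 cells at up to 65.1 CPM. Of the 11 endothelial genes listed, 6 were analysed here, and of the 5 ependymal genes 2.

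Genes read in cells and in no in-slice control numbered 528, which is 4.3% of the 12279 tested. Each had at least 20 CPM in the cell pool and a read in at least 40% of cells. None was read in more than 28 of 35 cells, and together they took between 0.475% and 7.85% of a cell's reads (median 4.37%). By share of cells the leaders were Rnf7, a subunit of ubiquitin ligases, in 28 cells, and Ntsr2, a neurotensin receptor of astrocytes, Ier2, an immediate early gene, Pla2g7, a secreted phospholipase, Myo6, an unconventional myosin, and Ppib, an ER cyclophilin, in 27 each. Aqp4, the water channel of astrocyte endfeet, Htra1, a secreted serine protease, Akt2, a kinase of insulin signalling, and Cope, a coat protein of transport vesicles, followed with 26 each. In the highest cell Ntsr2 reached 5917 CPM, Ier2 4334 CPM, Aqp4 3494 CPM and Htra1 3096 CPM, and in every case at least 7 cells had none. Rnf7 and Ppib were more even, with highest values of 359 and 221 CPM.

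In the pools Ntsr2 held 879 CPM (871 to 887), Aqp4 689.6 CPM (682 to 697) and Pla2g7 444 CPM (438 to 449.7) in cells, against 0 of 6020870 control reads. The floor set for 0 reads is 3 counts (0.498 CPM), a convention and not an exact interval. Set against that floor, the cell pool was 1764-fold, 1384-fold and 891-fold higher. The floor covers counting in these 4 controls only and does not bound the level in other in-slice controls. Aqp4 and Ntsr2 were far above it in in-slice controls of other batches, described below. Aqp4 (ENSMUSG00000024411, GRCm38 chromosome 18, 15389496 to 15410982, minus strand) had a median of 581 CPM in cells and Ntsr2 (ENSMUSG00000020591, GRCm38 chromosome 12, 16653382 to 16660227, plus strand) of 191 CPM. A read in 0 of 4 controls allows a share of up to 60.2% of such libraries (Clopper-Pearson upper bound). The count was set largely by control 1: without that control it was 1810, with all 528 among them. With every library thinned to 100000 reads it was 541, of which 262 were among the 528. Reads of Pla2g7 and Ppib can include those of genes overlapping on the opposite strand (1700071M16Rik and Snx22).

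Genes higher in cells numbered 5213 (42.5% of those tested), including all 528 above. They took 18.7 to 70.1% of a cell's reads (median 48%) and 19.9, 6.76, 2.46 and 1.88% of the reads of controls 1 to 4. Among those with a read in at least 1 control the first was Fos. Fos, an immediate early transcription factor, stood at 20.2, 0, 1.39 and 0.60 CPM in the controls and from 41.3 to 26418 CPM in the 35 cells, with a median of 1728 CPM. All 35 cells lay above all 4 controls, and the log2 ratio was 8.81. Egr1, another immediate early factor, stood at 152, 0, 1.39 and 3.6 CPM in the controls and from 39.4 to 8740.3 CPM in the 35 cells, with a median of 1235 CPM, with 31 cells above control 1. The rest of the first 10 were Clu, Gja1, Slc1a3, Sox9 and Gfap, described above, and Gpr37l1, Prdx6 and Dusp1.

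Gpr37l1, an orphan receptor of astrocytes, was read in control 4 alone (3.6 CPM) and in 28 cells, at up to 5123 CPM. Prdx6, a peroxiredoxin enriched in astrocytes, was read in control 1 alone (35.3 CPM) and in 34 cells, with a median of 568 CPM. Dusp1, a phosphatase induced by stress, stood at 445 CPM in control 3 and at 0 in the others, and 19 of 35 cells exceeded that control. Its log2 ratio was 2.73, and 7.4 without the highest library of each pool. Of the 35 cells, 1 was at 0 like the other 3 controls.

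**Figure D3:**
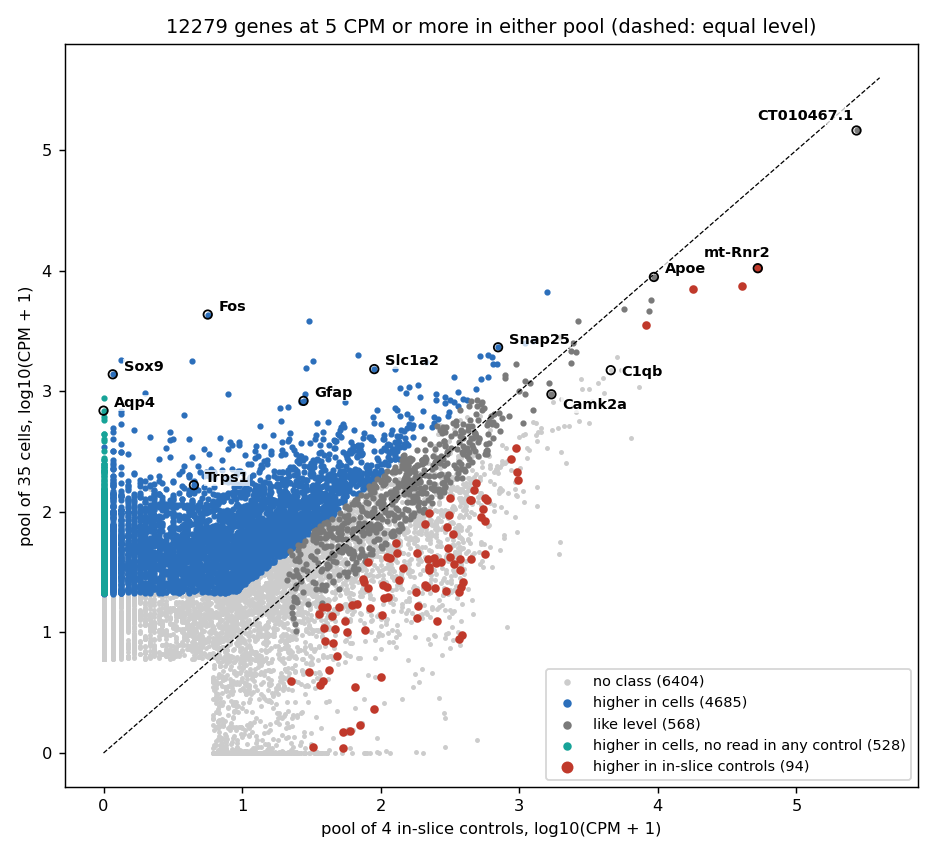
Each point is 1 of 12279 genes, with the CPM of the pool of 4 in-slice controls on the x axis and of the pool of 35 cells on the y axis, both as log10(CPM + 1). Colours mark the classes and the dashed line equal levels. Aqp4 and Sox9 lie at the left edge with high cell levels, Apoe lies near the line, and CT010467.1 and mt-Rnr2 lie at the upper right below it.

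Of 16 listed activity and stress genes, 15 were tested and 11 were higher in cells, beside 42.5% of all genes tested. The list summed to 1429, 471, 5097 and 205 CPM in the controls and 572 to 46401 CPM in cells (median 11442 CPM), and 28 cells exceeded control 3. Junb, a partner of Fos, stood at 55.5, 84.5, 1716 and 0 CPM in the controls with a median of 1438 CPM in cells, and Hspa8, a constitutive heat shock protein, at 392.4, 170.03, 600.1 and 56.4 CPM with a median of 1087 CPM. Junb was high in control 3 alone, and the median log2 ratio of the list was 1.94, near the 1.52 of all genes tested, and 5.06 without that control.

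Interferon-induced genes were read in every control, but few in each: 3, 2, 4 and 1 of the 15 listed in controls 1 to 4. The list summed to 45.4, 112, 643 and 0.60 CPM in the controls and 0 to 9612 CPM in cells (median 735 CPM), and 12 of its 14 tested genes were higher in cells, beside 42.5% of all genes tested. Ifi27 made up nearly all of control 3's sum (639.9 CPM), and its median in cells was 136 CPM. Irgm1 and Gbp3, GTPases of cellular defence, stood at 7.56, 0, 1.85 and 0 CPM and 0, 27.8, 0.463 and 0 CPM in the controls, and at up to 5744 and 3033 CPM in cells. Ifitm3, a restriction factor, had no read in the controls and was read in 15 cells. Irgm1 was uneven in cells, with a median of 2.187 CPM.

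Glycolytic genes summed to 4587, 5241, 1603 and 199.7 CPM in the controls and 1152 to 17775 CPM in cells (median 8982 CPM), and 27 cells exceeded control 2. 11 of 13 were higher in cells, beside 42.5% of all genes tested, and the list's median log2 ratio of 1.44 lay close to the 1.52 of all genes. Aldoc, the aldolase of astrocytes, stood at 263, 0.994, 0.463 and 56.4 CPM in the controls with a median of 1039 CPM in cells, and Aldoa, the aldolase shared by most cells, at 1129, 174, 746 and 0.60 CPM with a median of 1432 CPM. The list of nuclear genes of oxidative phosphorylation summed to 5914, 6779, 1943 and 3584 CPM in the controls and 2061 to 11894 CPM in cells (median 6001 CPM), with 9 of 24 higher in cells and 8 at a like level, beside 42.5% and 4.63% of all genes tested. Its median log2 ratio was 0.87. Cox6a1 and Cox8a, subunits of cytochrome oxidase, stood at 469.8, 968, 0 and 1169.6 CPM and 408, 814, 0 and 964 CPM in the controls, with medians of 305 and 372 CPM in cells. Control 3 had neither.

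RNAs kept in the nucleus were read in every control. Malat1 stood at 3155, 1567, 1847 and 96.6 CPM in the controls and from 241 to 26186 CPM in the 35 cells, with a median of 4065 CPM, and 20 cells exceeded control 1. Its log2 ratio was 2.09. Meg3 stood at 5856, 286, 0 and 193 CPM in the controls, with 1 cell above control 1 and a median of 176 CPM. The ratio of Meg3 was -0.83, and 2.43 without control 1. The whole list of 8 summed to 11279, 2136, 1847 and 336 CPM in the controls and 442 to 35808 CPM in cells (median 6069.7 CPM). Genes of the cell cycle were low: they summed to 227, 58.7, 0.463 and 0.60 CPM in the controls and 0 to 3628 CPM in cells (median 181 CPM), and Pcna, a DNA replication clamp, had no read in the controls and a read in 17 cells.

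Genes at a like level in both pools numbered 568 (4.63% of those tested). They had at least 20 CPM in the control pool, a read in 3 or 4 controls and a log2 ratio between -1 and 1, so they are read in most controls. The count rests on which controls are used: it was 144 without control 1, 186 without control 2, 390 without control 3 and 296 without control 4. They took 42, 39.3, 23.7 and 68.5% of reads in the controls, and 11.2 to 64.2% in cells (median 29.1%), CT010467.1 included. Among the first by level were Apoe, Fth1, Actb, Cst3, Ctsd, Tmsb4x, Itm2b, Cd81 and Camk2a. Several of them were level only in the sum. Apoe (ENSMUSG00000002985, GRCm38 chromosome 7, 19696109 to 19699188, minus strand) stood at 1513, 3408, 23183 and 646 CPM in the controls and from 3.33 to 28190.4 CPM in the 35 cells, with a median of 7553 CPM, and its log2 ratio of -0.08 became 2.44 without control 3. Fth1 stood at 4356, 8569, 17289.6 and 1483 CPM with a median of 3915 CPM in cells. Tmsb4x, an actin-binding peptide, stood at 2428, 3261, 3663 and 138 CPM with a median of 1711 CPM.

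Actb, cytoplasmic actin, stood at 2923, 1784, 13286 and 99 CPM in the controls, and the lysosomal protease Ctsd at 889, 1392, 6008 and 1.2 CPM. Itm2b, a membrane protein cleaved by furin, stood at 574, 1717, 5421 and 0.60 CPM, and the tetraspanin Cd81 at 564, 695, 4843 and 17.4 CPM. In each of these 4 genes control 3 was the highest control and control 4 the lowest. Their medians in cells were 3906, 1724, 1492 and 2398 CPM. Of the 15 housekeeping genes listed, 10 stood at a like level and 4 were higher in cells. Of 79 tested ribosomal protein genes, 48 stood at a like level and 27 were higher in cells. Over all genes tested 4.63% stood at a like level and 42.5% were higher in cells. The ribosomal protein list summed to 16905, 17269, 12666 and 9455 CPM in the controls and 2885 to 73539.6 CPM in cells (median 13782 CPM), so the 4 controls lay within the range of cells. Rps27 stood at 576, 968, 605 and 657 CPM in the controls with a median of 289.6 CPM in cells.

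Genes higher in in-slice controls numbered 94 (0.766% of those tested). Without controls 1, 2, 3 and 4 in turn there were 60, 59, 135 and 142, with TMM scaling 192, and between the cells and the control titled 7ST2 868. The genes had at least 20 CPM in the control pool and a log2 ratio of -1 or less, also without each gene's highest libraries. That last step leaves out 1 of 4 controls but only 1 of 35 cells. The rule is thus stricter for controls, and its count cannot be compared with that of genes higher in cells. Cd83 and Lgmn, high in control 3, had ratios of -3.95 and -2.77 and did not pass. Of the 94 genes, 8 were mitochondrial: mt-Atp6, mt-Co2, mt-Cytb, mt-Nd1, mt-Nd6, mt-Rnr1, mt-Rnr2 and mt-Tf. mt-Rnr2 stood at 47415, 106008, 5313 and 85154 CPM in the controls and from 3590.1 to 33129 CPM in the 35 cells, with a median of 7503 CPM, and mt-Rnr1 at 29333, 80190.4, 5044 and 69645 CPM with a median of 4878 CPM in cells. Their log2 ratios were -2.33 and -2.42. The messages mt-Cytb, of complex III, and mt-Co1, of complex IV, had smaller ratios, at -1.35 and -0.9. mt-Co1 did not pass the rule. Control 3 was the lowest control for both ribosomal RNAs, at 5313 CPM and 5044 CPM, within the range of cells, and against control 3 alone, with the 7ST2 cells titled like it, the ratio of mt-Rnr2 was 0.09.

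The 10 nuclear genes named from this class were patchy across controls. Because the rule drops each gene's highest control, it selects genes that are high in more than 1 control. Rufy1, an endosomal adaptor, stood at 31.1, 0, 709.9 and 1109 CPM in the controls and was read in 9 cells, at up to 710.5 CPM. Itga5, the fibronectin receptor subunit, stood at 42.9, 365, 316 and 0 CPM, and Tmem123, a membrane glycoprotein, at 0, 704, 492 and 0 CPM. Fmr1, the RNA-binding protein lost in fragile X syndrome, stood at 17.6, 608, 0.463 and 596 CPM. For these 4 genes the median in cells was at most 1.32 CPM. Tubg2, a gamma-tubulin, stood at 22.7, 802, 0 and 849 CPM, Atg14, an autophagy factor, at 236, 0.994, 944 and 0 CPM, and Ipo7, a nuclear import receptor, at 327, 564, 602 and 0 CPM. The remaining 3 of the first 10 were Dpy19l4, Bcor and Tmem121b. No member of these 10 was above 20 CPM in all 4 controls, and each was at 0 or under 2 CPM in at least 1 of them. Between the cells titled 7S and control 4, which shares that title, the log2 ratios of Itga5, Tmem123, Dpy19l4, Atg14, Ipo7 and Bcor were positive, as was that of Rufy1 between the cells and controls titled 7ST and of Fmr1 between those titled 7ST2. Of the whole class 13 were highest in control 1, 34 in control 2, 30 in control 3 and 17 in control 4.

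**Figure D4:**
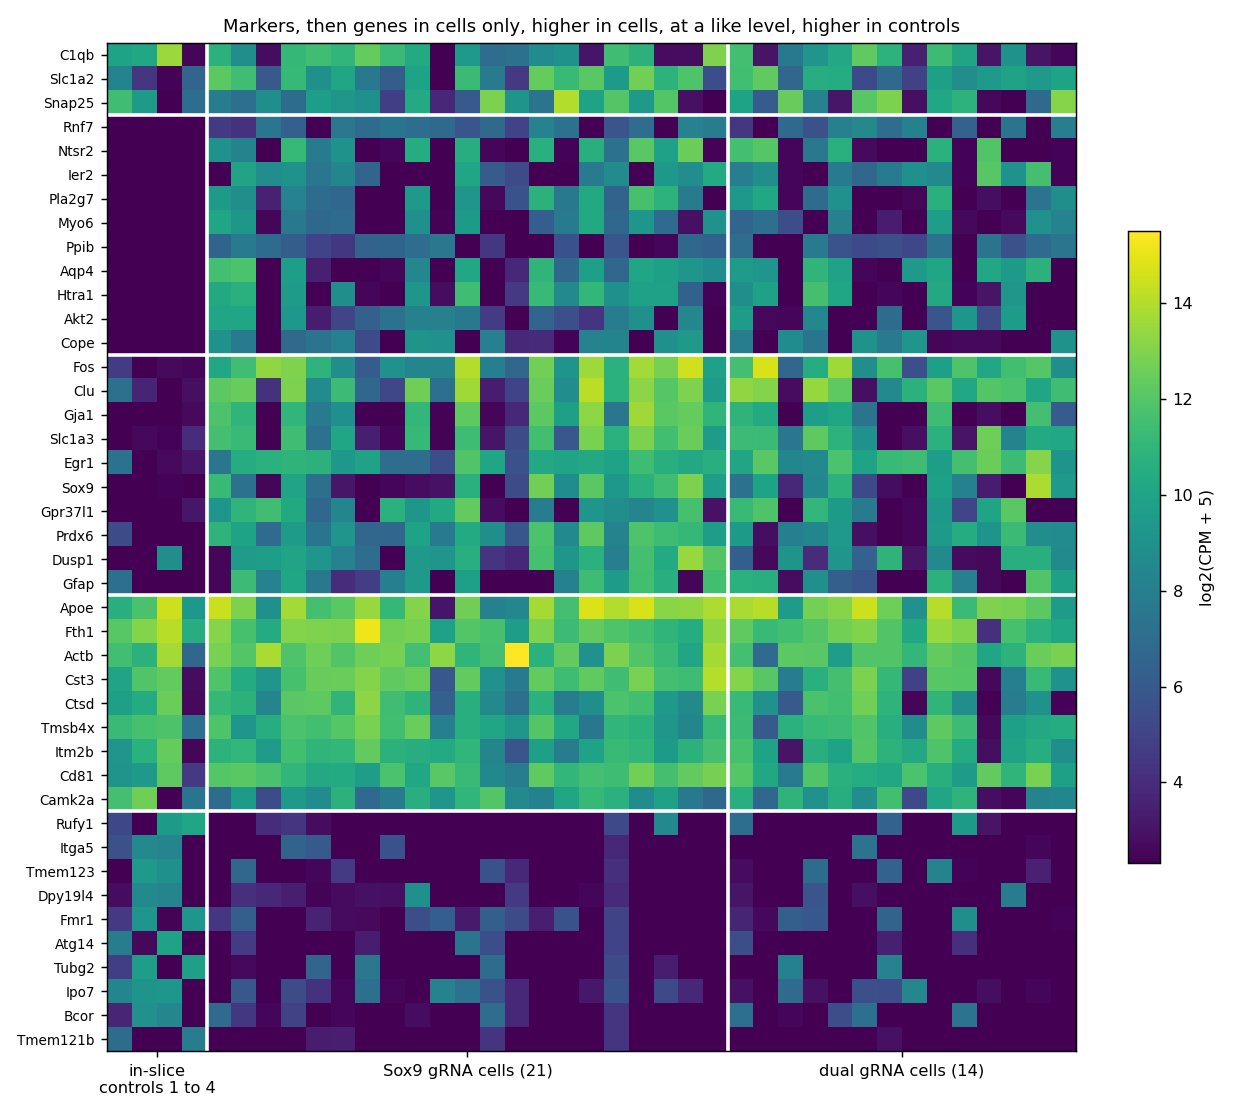
Rows are genes and columns libraries (4 in-slice controls, 21 Sox9 gRNA cells, 14 dual gRNA cells), coloured by log2(CPM + 5). From the top, blocks hold 3 of the markers, the first 10 genes read in no control, the first 10 higher in cells with a control read (Gfap and Sox9 among them), 9 of the first 10 at a like level and the first 10 higher in controls. The last block is at its lowest colour in most cells and higher in 2 or 3 controls per gene, a pattern that the rule for this class favours.

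Titles split the libraries into series that coincide with the gRNA: cells titled 7S or 7S2 carry the Sox9 gRNA and those titled 7ST or 7ST2 both gRNAs. Control 4 is titled 7S, controls 1 and 2 are titled 7ST and control 3 is titled 7ST2, so the 7S2 cells have no control of their own series. The sources leave unstated what the series stand for, so gRNA and series cannot be told apart. Compared within their own series, Aqp4 had log2 ratios of 7.21 (7S cells against control 4), 6.91 (7ST cells against controls 1 and 2) and 7.11 (7ST2 cells against control 3). The values were 7.54, 7.04 and 7.33 for Gja1, 9.13, 8.41 and 8.29 for Fos, and 6.71, 2.53 and 7.67 for Gfap. These genes kept their direction in all 3 series with a control. C1qb did not: its ratios were 8.19, 0.74 and -4.23. Camk2a had 2.55, -1.78 and 6.93, and Snap25 2.92, 0.72 and 8.86. CT010467.1 had -1.66, -0.17 and 3.29. For C1qb, Camk2a and CT010467.1 the direction differed between series, and for Snap25 only the size did.

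The 8 in-slice controls of batches 2, 4 and 5, of which 1 is from day 7 and 7 are from day 21, were set beside these 4 as levels only, since the batches were deposited as separate tables. Their mitochondrial share was 1.21 to 12.2% (median 7.6%) and that of CT010467.1 0.913 to 70.7% (median 34.6%). Gfap ran from 0 to 5.59 CPM (median 0 CPM) and Slc1a2 from 0 to 115 CPM (median 17.2 CPM), so both astrocyte markers were again low. Snap25 ran from 89.4 to 4395 CPM (median 1407 CPM) and was read in all 8. C1qb ran from 0 to 3426 CPM (median 106 CPM), again with both near-empty and rich libraries. Sox9 had no read in any of the 8. Of the 528 genes with no read in the 4 controls of batch 3, 88 (16.7%) had none in these 8 either, beside 28.3% of all genes tested. Of the same 528, 294 (55.7%) reached 20 CPM in at least 1, beside 49.2% of all genes tested. Aqp4 was read in 2 of the 8 and reached 651 CPM in 1, and Ntsr2 reached 464 CPM. Akt2 was read in none and Gja1 reached 4.0 CPM. Most of the 528 were thus read in another in-slice control. Of the 568 genes at a like level, 70.6% were read in 4 or more of the 8, beside 17.2% of all genes tested.

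How much RNA an in-slice control holds cannot be read from CPM. The table of batch 2 has rows of added spike-in RNA (ERCC), and its in-slice control of day 7 held 4.37 gene reads per spike-in read. The 23 cells of that batch ran from 0.716 to 29.99 (median 4.53), and 11 of them lay below the control. In the 8 control gRNA cells of day 7 the median was 4.93. That control lay near the median of the cells, and whether every tube received the same amount of spike-in is unstated in the sources.

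Reads of the guide sequences, which come from the vector and are counted in rows of their own, were nearly absent from the controls. Control 1 held 1 read of the first Sox9 guide, control 3 held 1 read of the second, controls 2 and 4 held none, and no control held a read of the Trps1 guide. In cells the first Sox9 guide was read in 25 of 35, at up to 46 reads, and the second in 19, at up to 95 reads. The Trps1 guide was read in 9 of 14 cells labelled with both gRNAs, at up to 42 reads, and in 4 of 21 cells labelled with the Sox9 gRNA alone, at up to 2 reads. At least 2 guide reads of any kind were found in 27 cells and in no control, and 4 cells held none.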

How the data were processed

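Messenger RNA of single cells and of tips labelled as in-slice controls was sequenced by Smart-seq2. The authors deposited read counts per Ensembl gene ID, raw and in whole numbers, in 1 table per batch. The submitters' processing notes name STAR 2.6.0a, RSEM 1.3.0 and the builds GRCm38 and mm10. Filters and use of strand are not given in the sources used here. Columns were matched to samples by title, 139 columns of other samples were not used, and rows naming no gene (spike-ins and guides) were kept out of totals. IDs were matched to GENCODE M21, giving a symbol to 24265 of 24304 gene rows. Counts were summed over 4 controls and 35 cells and divided by total gene reads (CPM), in Python 3.11.15 with pandas 2.3.3 and scipy 1.17.1. Genes at 5 CPM in either pool, called tested, were sorted by the class rules given with each class. No test between controls and cells was run, and Dixon's criterion served only to mark controls that stand apart. The classing was tested on simulated data.

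Named genes are the first 10 of each class (genes read in no control by share of cells, then CPM; higher in cells or controls by the ratio without the highest libraries; like level by control CPM), the 4 markers, both targets and the 4 most abundant members of each list. Mitochondrial, ribosomal protein and predicted genes were counted and not named unless in a list. Some genes that the rule names are not reported here. Members and lists were chosen with earlier results of these data known. No pair of libraries held the same values, with the highest correlation at 0.649. Alternatives covered pseudocount, filter, detection, weighting, totals, TMM scaling (edgeR 4.0.16 on R 4.3.3), depth, single controls, gRNA and title series.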

Additional observations from a re-analysis of the deposited data

Results flagged for a closer look

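Among 150 values of the 4 in-slice controls (named genes and list sums as log2(CPM + 5), and shares of reads), 29 had 1 control so far from the other 3 that its gap exceeded Dixon's 95% critical value. Chance marks about 1 in 20 independent values, a rate that does not apply here: with 3 controls at 0 any read in the other sets it apart, and a list sum can rest on a gene that is also counted on its own. By control they numbered 10, 6, 5 and 8 in controls 1 to 4, and none of the 4 was without them. In control 1 the high values, in CPM, were those of Fos (20.2), Egr1 (152), Prdx6 (35.3), Gfap (135), Rorb (47.1), Neurod6 (20.2), Npy (6.72), Eng (157) and Ccnd1 (98.3), with the endothelial list at 157. In control 2 they were those of Gad1 (2.98), Gpr17 (0.994), Pdgfrb (167) and Gbp3 (27.8), with the oligodendrocyte progenitor list at 0.994 and the pericyte, smooth muscle and fibroblast list at 167. Control 3 was high in Sox9 (0.463), Dusp1 (445) and Ifi27 (639.9) and low in Cox6a1 (0) and Cox8a (0). Control 4 was high in Gja1 (1.2), Slc1a3 (10.8), Gpr37l1 (3.6), Stat3 (30.6) and Vim (0.60) and low in Ipo7 (0), Tmsb4x (138) and Eno1 (0). Several of these highs, such as those of Sox9, Vim and Gpr17, are single reads, so a control that stands apart here need not hold much RNA of that gene. Npy is an interneuron peptide, Rorb and Neurod6 are factors of cortical excitatory neurons, Ccnd1 is a cyclin and Eno1 a glycolytic enzyme.

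Guide rows lie outside the gene counts and stood above the controls. The first Sox9 guide exceeded the highest control in 18 cells, the second in 17 and the Trps1 guide in 13, of which 4 are labelled with the Sox9 gRNA alone.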

How the results depend on the processing

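Of 2530 values (115 named genes in 22 alternative settings), 2100 kept direction and side of the threshold or moved little, and 26 values of 17 genes reversed. Leaving out 1 control at a time or the shallowest cell gave 499 to 1810 genes read in no control, 4975 to 5899 higher in cells, 59 to 142 higher in controls and 144 to 569 at a like level. The highest count of the first came without control 1, the lowest of genes higher in controls without control 2 and of genes at a like level without control 1, and the highest of genes higher in controls without control 4. Genes read in no control numbered 336 with dual gRNA cells only, 3785 in title series 7S and 7S2, 3747 in 7S, 1077 in 7ST and 1886 in 7ST2. Genes higher in cells numbered 3377 in 7ST and 2569 in 7ST2. Genes higher in controls numbered 54 at a pseudocount of 20 CPM, 142 with libraries weighted equally, 192 with TMM scaling, 151 when thinned to 100000 reads and 231 with mitochondrial genes and CT010467.1 out of the totals. They numbered 234 with dual gRNA cells only, 308 in 7S and 7S2, 322 in 7S, 280 in 7ST and 7ST2, 388 in 7ST and 868 in 7ST2. Genes at a like level numbered 357 when thinned, 267 in 7S and 7S2, 264 in 7S, 267 in 7ST and 7ST2, 979 in 7ST and 257 in 7ST2. Reversed log2 ratios in 7S and 7S2, then in 7S, were 1.76 and 2.24 for Itga5, 1.57 and 2.00 for Tmem123, 2.31 and 2.86 for Dpy19l4, 1.75 and 2.17 for Atg14, 3.27 and 3.78 for Ipo7, 2.03 and 2.54 for Bcor and 0.42 and 0.12 for mt-Cytb. In 7ST they were 0.64 for Rufy1, -0.33 for Cpe, -0.11 for Gria2, -0.042 for Gpr17, -0.34 for Ccnd2 and -0.75 for Rpl4. In 7ST2 they were 3.99 for Fmr1, -3.06 for Cnp, 0.087 for mt-Rnr2 and 0.0040 for mt-Rnr1. Cnp was also at -1.07 with dual gRNA cells only and at -1.46 in 7ST and 7ST2. The cause was not tested. Weighting libraries equally moved the median log2 ratio of all genes by -0.11 and pseudocounts of 1 and 20 CPM moved it by 1.13 and -0.79. No cell had under 100000 reads, so that alternative gave no value. The series 7S, 7ST and 7ST2 on their own, leaving out the shallowest cell and the totals without CT010467.1 were chosen after seeing the data. No paired analysis was possible because controls and cells share no replicate number that marks a pair, and no test between them was run.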
